A study of Homo sapiens with 12 samples.

Results

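The 10 genes described here encode NF-kB transcription factors and the feedback proteins that NF-kB signalling is known to induce. They were 5 factor genes (NFKB1, NFKB2, RELA, RELB and REL), 3 genes of the IkB family (NFKBIA, NFKBIE and BCL3), and TNFAIP3 and BIRC3, whose products act on ubiquitin in the signalling complexes upstream. They were chosen by name, out of 19626 protein-coding genes on chromosomes 1 to 22 and X in GENCODE 44. No rule on a measured value was used, but earlier results of these data were known when the genes and lists were chosen. For each gene, every called ARID1A and H3K4me3 region was mapped at the promoter, taken as 1 kb either side of any protein-coding transcription start site (TSS), and over the gene body with 50 kb on each side.

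The regions were mapped by CUT&RUN, a method that frees the DNA around an antibody with a tethered nuclease and sequences it. The cells were RT112, an established human line from a transitional cell carcinoma of the bladder, which the study classed as ARID1A wild type. The labels name no treatment, all cells were grown in DMEM with 10% FBS, and the 4 groups were set apart by the antibody, which the methods list at different dilutions. They were ARID1A from Abcam, ARID1A from CST, H3K4me3, and IgG as the negative control, with 3 replicates each (12 samples). The replicates of each antibody were merged by the authors into 1 region list of positions without signal, so a promoter was scored as holding a region or not, widths could be ranked, depth was unknown, and no spread between replicates could be given. No IgG list was analysed here, and every comparison below is a count or a rank without a test.

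NF-kB factors are dimers of proteins that share a Rel homology domain, and in resting cells IkB proteins hold most of them in the cytoplasm. Signals from cytokine and pattern-recognition receptors lead IkB kinase to mark IkB for degradation, the dimers enter the nucleus, and among the genes they switch on are their own inhibitors. ARID1A is a subunit of the BAF (SWI/SNF) chromatin remodelling complex, which binds at promoters and distal regulatory elements, and H3K4me3 is the histone mark of active promoters.

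The stretches below are shown because they are the DNA that lay under the ARID1A regions discussed in what follows. The first 6 are the 250 bases before the RefSeq start of NFKB2, REL, RELA, NFKBIA, TNFAIP3 and BIRC3 (RefSeq, GRCh38.p14), each read 5′ to 3′ in the direction of the gene. The last 3 are the central 300 bases of the overlap of an Abcam and a CST region away from protein-coding promoters (hg38, plus strand). They lie within an intron of TNFAIP3, upstream of BCL3 in the exon of the long non-coding RNA gene ENSG00000288773, and downstream of REL within the body of PUS10. Capitals mark matches on either strand to the 10-letter NF-kB consensus, and the RELA promoter and the REL downstream region are shown as stretches without one. These 9 stretches were chosen with the matches known.
NFKB2 promoter, chr10:102395455-102395704, plus strand: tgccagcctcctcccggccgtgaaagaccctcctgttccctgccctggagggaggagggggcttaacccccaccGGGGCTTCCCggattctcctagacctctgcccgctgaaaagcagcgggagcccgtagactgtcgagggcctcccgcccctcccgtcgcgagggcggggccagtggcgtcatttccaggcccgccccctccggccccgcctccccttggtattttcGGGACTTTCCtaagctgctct
REL promoter, chr2:60881324-60881573, plus strand: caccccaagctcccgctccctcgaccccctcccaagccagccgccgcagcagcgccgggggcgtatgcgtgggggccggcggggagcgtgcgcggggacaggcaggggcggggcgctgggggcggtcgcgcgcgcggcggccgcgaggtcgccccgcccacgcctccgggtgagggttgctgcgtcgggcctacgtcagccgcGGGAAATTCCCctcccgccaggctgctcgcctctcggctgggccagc
RELA promoter, chr11:65662917-65663166, minus strand: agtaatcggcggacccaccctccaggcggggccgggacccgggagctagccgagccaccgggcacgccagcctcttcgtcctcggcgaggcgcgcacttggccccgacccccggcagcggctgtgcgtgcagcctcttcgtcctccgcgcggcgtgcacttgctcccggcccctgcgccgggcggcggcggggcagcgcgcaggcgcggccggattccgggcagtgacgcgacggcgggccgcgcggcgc
NFKBIA promoter, chr14:35404750-35404999, minus strand: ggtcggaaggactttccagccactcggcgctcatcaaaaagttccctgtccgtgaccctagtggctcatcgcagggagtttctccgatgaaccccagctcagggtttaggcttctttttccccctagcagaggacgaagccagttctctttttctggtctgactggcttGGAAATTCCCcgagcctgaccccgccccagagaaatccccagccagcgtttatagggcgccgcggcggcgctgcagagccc
TNFAIP3 promoter, chr6:137867009-137867258, plus strand: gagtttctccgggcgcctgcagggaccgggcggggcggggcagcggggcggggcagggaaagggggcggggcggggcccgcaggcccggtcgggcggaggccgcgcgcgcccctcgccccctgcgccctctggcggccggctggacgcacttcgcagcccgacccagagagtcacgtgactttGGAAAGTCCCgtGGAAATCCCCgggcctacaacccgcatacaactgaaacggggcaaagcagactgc
BIRC3 promoter, chr11:102317234-102317483, plus strand: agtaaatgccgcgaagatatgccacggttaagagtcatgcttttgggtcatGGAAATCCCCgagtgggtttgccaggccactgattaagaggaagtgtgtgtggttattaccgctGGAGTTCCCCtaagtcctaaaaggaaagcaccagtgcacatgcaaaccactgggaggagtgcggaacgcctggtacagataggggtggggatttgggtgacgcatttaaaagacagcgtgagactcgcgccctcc
TNFAIP3 intron, chr6:137873399-137873698, plus strand: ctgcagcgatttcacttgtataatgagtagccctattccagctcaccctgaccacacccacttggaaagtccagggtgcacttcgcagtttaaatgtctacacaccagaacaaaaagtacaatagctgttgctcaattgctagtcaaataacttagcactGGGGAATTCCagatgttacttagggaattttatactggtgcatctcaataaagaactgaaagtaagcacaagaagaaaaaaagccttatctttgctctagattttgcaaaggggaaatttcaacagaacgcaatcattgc
BCL3 upstream region, chr19:44738829-44739128, plus strand: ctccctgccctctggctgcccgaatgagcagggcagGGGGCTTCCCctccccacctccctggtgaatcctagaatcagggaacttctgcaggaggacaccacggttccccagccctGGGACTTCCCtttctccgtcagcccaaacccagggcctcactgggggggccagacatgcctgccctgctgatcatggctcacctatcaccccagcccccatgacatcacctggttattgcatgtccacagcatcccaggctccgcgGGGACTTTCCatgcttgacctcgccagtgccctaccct
REL downstream region, chr2:60958286-60958585, plus strand: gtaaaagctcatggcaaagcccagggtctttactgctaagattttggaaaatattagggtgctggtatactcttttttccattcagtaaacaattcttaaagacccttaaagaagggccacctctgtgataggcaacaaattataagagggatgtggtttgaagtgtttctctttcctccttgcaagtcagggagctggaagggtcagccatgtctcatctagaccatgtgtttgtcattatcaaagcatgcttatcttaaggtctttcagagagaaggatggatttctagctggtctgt

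Both ARID1A antibodies gave a region at the promoter of every one of the 10 genes. An Abcam region lay at 10 of 10 promoters, beside 46.7% of all protein-coding genes, and a CST region lay at 10 of 10, beside 41.9%. Regions of both lists were present at 10 of 10, against 38.2% of all genes, and in each of the 10 the 2 regions overlapped. The share of all genes where the 2 overlap was not counted. With only the regions at or above the median width of each list, both were present at 5 of 10, against 21.4% of all genes. The members have 2 to 12 annotated TSSs (median 4.0, against 3.0 over all genes), and among the 14180 genes in that range 42.4% had both. H3K4me3 was present at 8 of the 10 promoters (53.1% of all genes). All 3 lists met at the same 8 (33.8% of all genes), and at those 8 the 3 regions lay over 1 same TSS (32.9%). The last count was 4 with those wider regions, and 5 where the antibodies had to overlap by at least 50% of both regions. RELB and BIRC3 were the 2 genes without H3K4me3. ARID1A and H3K4me3 calls go together across the genome, since both antibodies were present at 63.8% of genes with H3K4me3, and the count for the 8 genes is best read against that share.

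**Figure D1:**
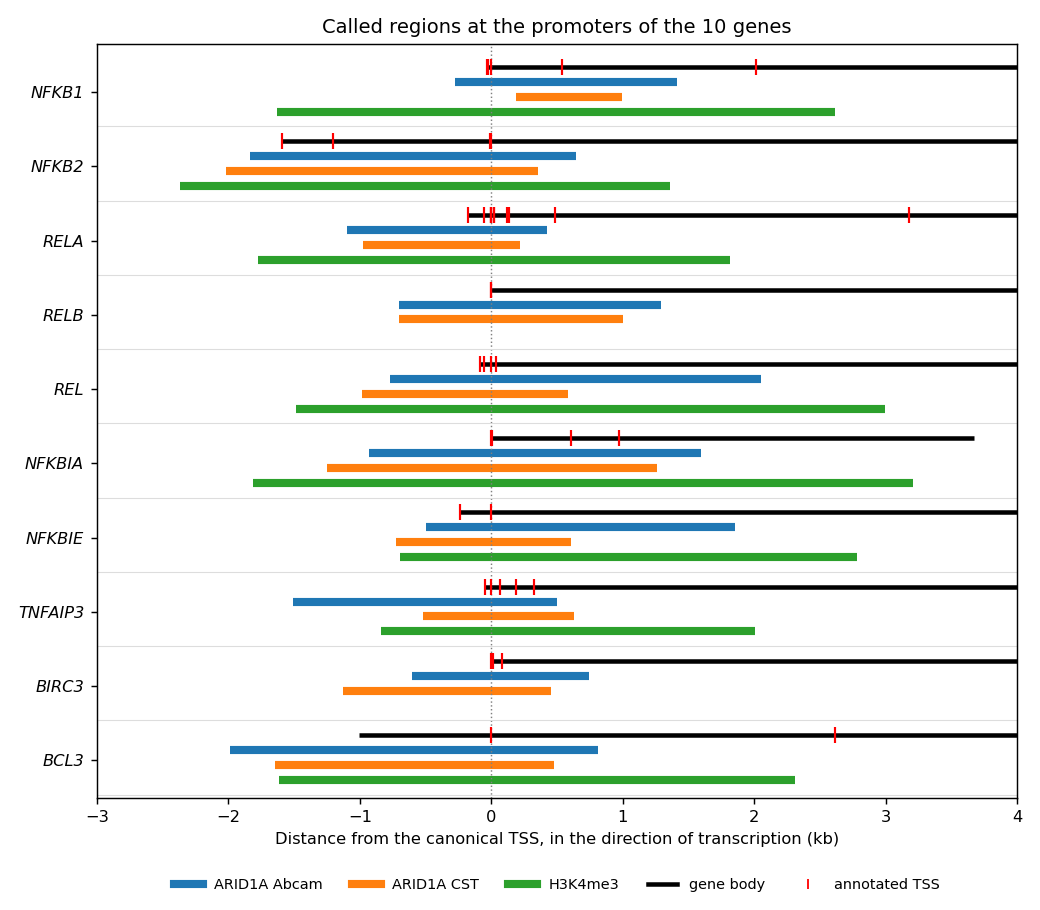
Called regions at the promoters of the 10 genes, by distance in kb from the canonical TSS in the direction of transcription. Blue, orange and green bars are Abcam, CST and H3K4me3 regions, black bars the gene body and red ticks annotated TSSs; the Abcam bar crosses 0 in all 10 genes, the CST bar in 9, and RELB and BIRC3 have no green bar.

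Most starts of these genes lay close to both antibodies. Of the 45 protein-coding TSSs of the 10 genes, 40 had both antibodies within 1 kb and 36 lay under both. Many of these TSSs lie close together, so that 1 region can cover several. The Abcam region at RELA covered 10 of its 12. The Abcam region covered the canonical TSS in 10 genes and the CST region in 9. These counts were not made over all genes, so whether they are unusual was not tested. The 5 TSSs that lacked at least 1 antibody within 1 kb were internal ones. Those of RELA 3173 bp, RELB 31244 bp and NFKBIE 5407 bp downstream of the canonical TSS had no region of any list. The one 2613 bp into BCL3 had H3K4me3 alone, and the one 2016 bp into NFKB1 had Abcam and H3K4me3 without CST.

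Among the factor genes, NFKB1 (ENSG00000109320.14, chr4:102501330-102617302, plus strand) encodes p105, the precursor of p50. Its Abcam region was 1692 bp wide (chr4:102501082-102502773), wider than 50.1% of Abcam regions at promoters. Its CST region was 806 bp (chr4:102501547-102502352), wider than 4.76% of those at promoters, and lay wholly inside the Abcam region. The CST region began 188 bp downstream of the canonical TSS, which made NFKB1 the 1 member whose overlap did not cover that TSS. H3K4me3 spanned 4247 bp there, and the lncRNA gene ENSG00000260651 also starts within 1 kb of them.

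NFKB2 (ENSG00000077150.21, chr10:102394110-102402524, plus strand) encodes p100, the precursor of p52 in the non-canonical pathway. Abcam, CST and H3K4me3 regions there were 2477, 2373 and 3733 bp wide. The overlap of the antibodies, 2190 bp, took up 58.7% of the H3K4me3 region, the highest share of the 8 genes. Its midpoint lay 738 bp upstream of the canonical TSS, and the region also covered the TSSs further upstream. RELA (ENSG00000173039.20, chr11:65653599-65663090, minus strand) encodes p65, the main activating subunit. Its regions were 1521, 1198 and 3588 bp wide in the same order, and the antibodies overlapped upstream, with the midpoint 378 bp before the canonical TSS, on the side of the divergent lncRNA gene RELA-DT.

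REL (ENSG00000162924.16, chr2:60881491-60931612, plus strand) encodes c-Rel, best known from lymphocytes. Its Abcam region of 2823 bp was the widest of the 10 and wider than 87.8% of Abcam regions at promoters, its CST region was 1569 bp, and its H3K4me3 region was 4485 bp. The Abcam region ran into the gene and the CST region further upstream, so that 48.0% of the Abcam region was shared. RELB (ENSG00000104856.15, chr19:45001461-45038192, plus strand) encodes the partner of p52 in the non-canonical pathway. Its Abcam region was 1998 bp (chr19:45000760-45002757) and its CST region 1700 bp (chr19:45000765-45002464), both over the canonical TSS and both wider than most of their kind at promoters (66.1% and 57.8% were narrower).

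NFKBIA (ENSG00000100906.12, chr14:35401079-35404749, minus strand) encodes IkBalpha, the inhibitor that NF-kB resynthesises first. It carried the widest CST region of the 10 genes, 2514 bp (chr14:35403489-35406002), beside an Abcam region of 2528 bp (chr14:35403153-35405680). Its H3K4me3 region of 5022 bp was also the widest of the 8, wider than 92.7% of those at promoters and longer than the gene. NFKBIE (ENSG00000146232.17, chr6:44258166-44265788, minus strand) encodes IkBepsilon, a slower inhibitor. Its regions were 2349, 1337 and 3480 bp wide for Abcam, CST and H3K4me3, and the antibodies shared 47.0% of the Abcam region, the lowest share of the 10. BCL3 (ENSG00000069399.15, chr19:44747705-44760044, plus strand) encodes a nuclear IkB protein that works with p50 and p52 dimers. Its regions were 2801, 2125 and 3926 bp wide, the CST region lay wholly inside the Abcam region, and the overlap reached past the H3K4me3 region, with 98.4% of it inside.

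TNFAIP3 (ENSG00000118503.18, chr6:137867214-137883314, plus strand) encodes A20, the ubiquitin-editing enzyme that turns NF-kB signalling down. Its Abcam region was 2008 bp, its CST region 1151 bp, and its H3K4me3 region 2848 bp, the narrowest of the 8. The Abcam region reached upstream past the H3K4me3 region, towards the body of the divergent lncRNA gene WAKMAR2. BIRC3 (ENSG00000023445.17, chr11:102317484-102339403, plus strand) encodes cIAP2, a ubiquitin ligase of the TNF receptor complex. With 1346 bp (chr11:102316879-102318224) it had the narrowest Abcam region of the 10, and it was the 1 gene whose CST region, 1586 bp (chr11:102316356-102317941), was wider than its Abcam region.

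Width separated the genes more than presence did. Abcam regions at the 10 promoters were 1346 to 2823 bp wide with a median of 2178 bp, and 8 of 10 were wider than the median of Abcam regions at promoters (1690 bp). CST regions were 806 to 2514 bp wide with a median of 1577 bp, and 5 of 10 were above their promoter median of 1573 bp. So the genes had comparatively wide regions in one ARID1A list and ordinary ones in the other. The 8 H3K4me3 regions were 2848 to 5022 bp wide with a median of 3829 bp, and 7 of 8 were above 3066 bp. At the 6639 genes with all 3 lists, the median of the widest region was higher than these promoter medians. It was 1892 bp for Abcam, 1686 bp for CST and 3343 bp for H3K4me3. In 7 of the 8 genes with H3K4me3 the overlap of the antibodies lay wholly inside that region, and it took up 19.0% (NFKB1) to 58.7% (NFKB2) of it. Neither measure was taken over all genes.

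**Figure D2:**
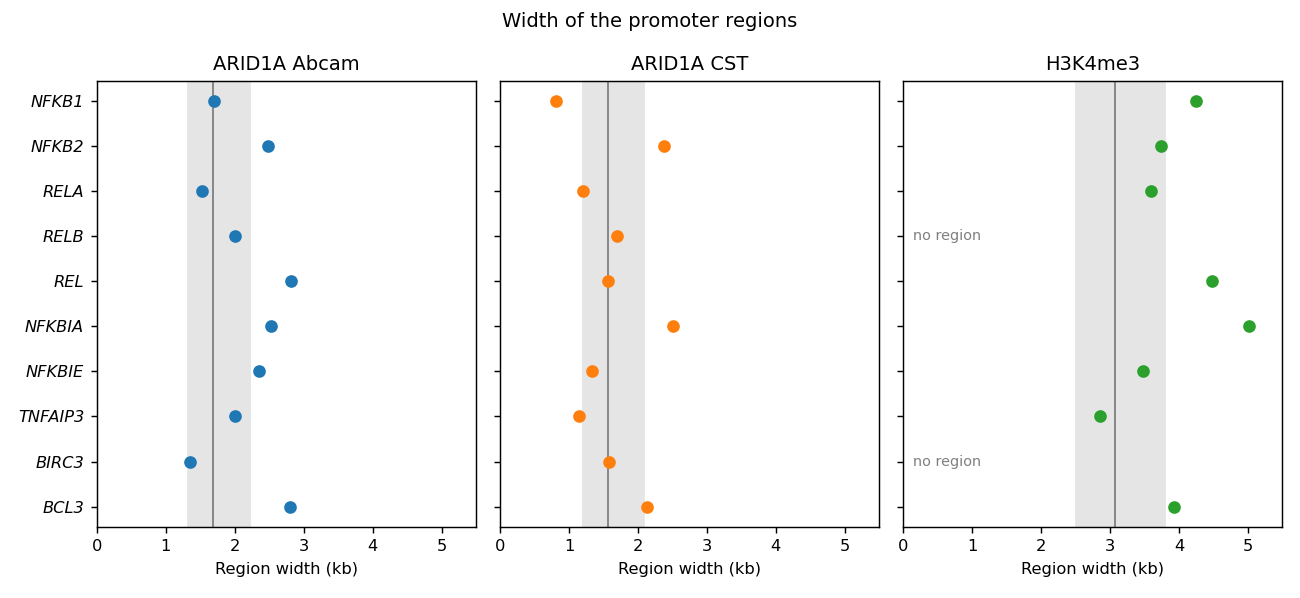
Width in kb of the region at each promoter, with a panel for each list. The grey band runs from the lower to the upper quartile of all regions of that list at promoters and the grey line is their median; 8 of 10 Abcam points, 5 of 10 CST points and 7 of 8 H3K4me3 points lie to the right of the line.

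RELB and BIRC3 differed from the other 8 genes in having both ARID1A antibodies and no H3K4me3 region. Of the 9212 genes without H3K4me3 at the promoter, 866 (9.40%) had both antibodies, and RELB and BIRC3 are 2 of those 866. Their ARID1A regions were of ordinary width for that set. For RELB, 69.7% of the set had a narrower widest Abcam region and 63.4% a narrower widest CST region, and for BIRC3 these shares were 30.8% and 56.1%.

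H3K4me3 was called at neighbouring genes of both. The region nearest to RELB lay at the promoter of CLASRP (chr19:45038250-45040267), 36786 bp from the canonical TSS of RELB and 5542 bp from its internal one. In all, 4 H3K4me3 regions lay around RELB, at the promoters of CLPTM1, CLASRP, ZNF296, and GEMIN7 with MARK4. The nearest to BIRC3 lay 28453 bp away at the promoter of its paralogue BIRC2 (chr11:102345937-102349043), which carried both ARID1A antibodies as well. The central 300 bases of the shared region had a GC content of 76.7% at RELB and 54.7% at BIRC3. These lie on opposite sides of the median of 63.3% over shared regions at promoters in the genome. How far H3K4me3 at these promoters lay below the calling threshold was not tested, since the list holds no signal.

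Over the gene bodies and 50 kb flanks the 10 loci held 56 Abcam, 56 CST and 24 H3K4me3 regions. Of the Abcam regions, 42 overlapped a CST region and are called shared here. There were 10 shared regions at the members' own promoters, 6 at promoters of other genes only, and 26 away from every protein-coding promoter. Of these 26, 10 lay upstream of the member, 13 downstream, 2 in introns and 1 over an exon, and the member's TSS was the nearest for 19. A single one of the 26 overlapped H3K4me3, a share that was not counted over the genome. A low count was largely set in advance, since 93.8% of all H3K4me3 regions lay at protein-coding promoters, which the 26 leave out. The antibodies disagreed at 14 Abcam regions without CST and 14 CST regions without Abcam. Over the genome 28609 of 37501 Abcam regions were shared, which is a similar share to the 42 of 56 here.

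**Figure D3:**
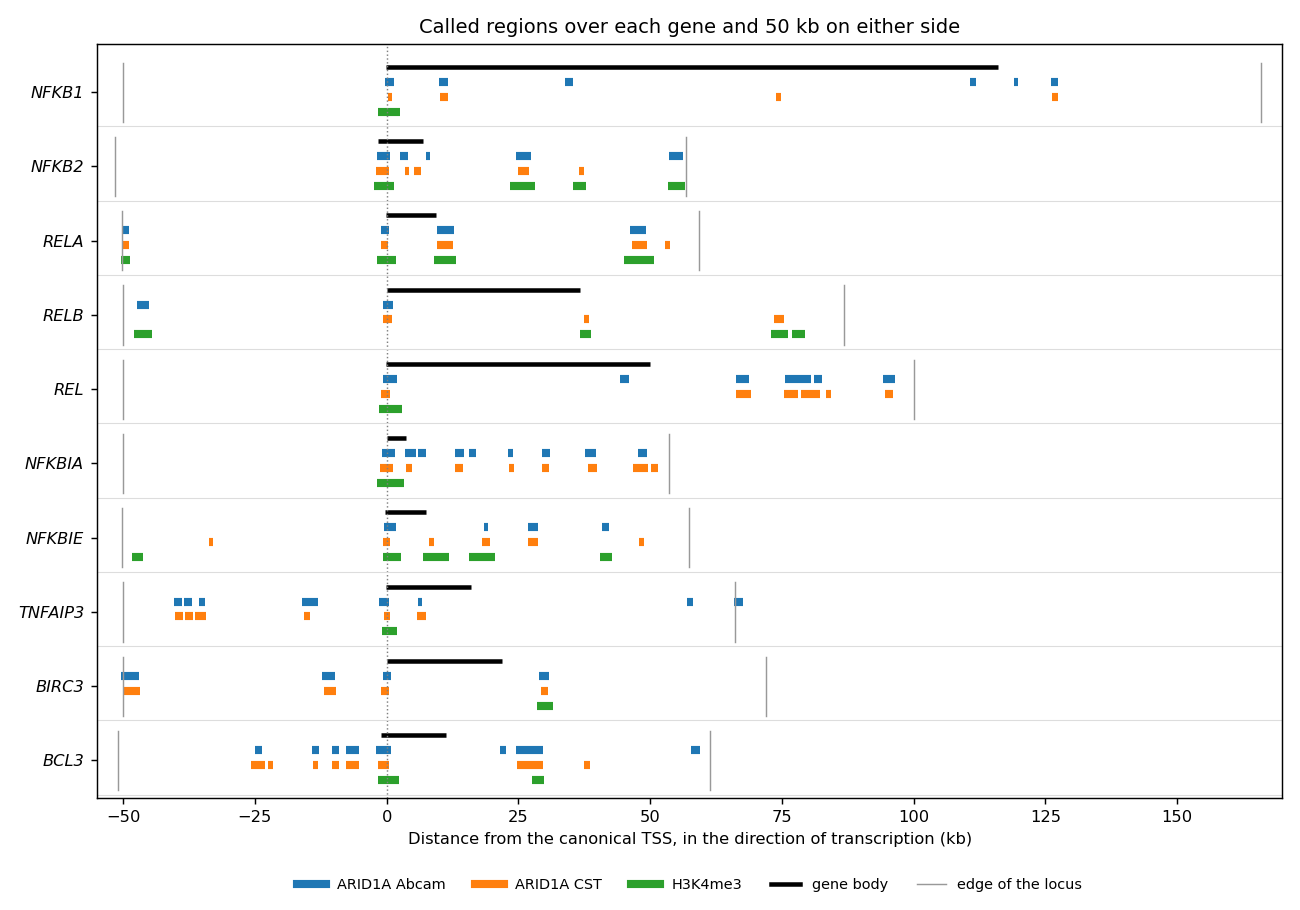
Called regions over each gene and 50 kb on either side, by distance in kb from the canonical TSS in the direction of transcription. Bars are Abcam (blue), CST (orange) and H3K4me3 (green) regions, black bars the gene body and grey ticks the ends of the locus; NFKBIA has its row of regions downstream, TNFAIP3 and BCL3 have theirs mainly upstream, and RELB has the promoter as its 1 shared region.

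The feedback genes NFKBIA, TNFAIP3 and BCL3 and the factor gene REL had the most shared regions off promoters. NFKBIA had 6, or 5.79 per 100 kb, and 99.2% of all genes had a lower density. TNFAIP3 had 5 (4.31 per 100 kb, 97.3% lower), BCL3 had 4 (3.56, 94.9% lower) and REL had 4 (2.66, 89.6% lower). BIRC3 had 2, or 1.64 per 100 kb, with 76.8% of genes lower. NFKB1 (2), NFKB2 (1), RELA (1) and NFKBIE (1) lay between 0.913 and 0.929 per 100 kb, where 62.4% to 63.6% of genes were lower, and RELB had 0. Neighbours within that group of 4 differ by locus length and not by more than 1 region. The ranks were taken with 50 kb flanks alone. Over the 10 loci, the 26 shared regions off promoters fell to 9 with 10 kb flanks. They fell to 24 when regions under 500 bp apart were joined.

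At least 1 shared region off promoters was found in 9 of the 10 loci, beside 56.8% of all genes and 69.6% of the 7505 genes with both antibodies at the promoter. The members' median density was 1.28 per 100 kb, against 0.623 over all genes and 0.880 over genes with both antibodies. By density, 9 of 10 were above either median and 5 of 10 were above the upper quartile of all genes (1.53). NFKB1, NFKB2, RELA and NFKBIE, at 0.913 to 0.929, were only just above the median of genes with both antibodies. Of those genes, 52.1% to 53.2% were lower. NFKB2, RELA and NFKBIE had 1 such region each, which by count is no more than the median locus of either gene set. Against genes with both antibodies alone, the shares that were lower became 98.7% for NFKBIA, 95.8% for TNFAIP3, 92.3% for BCL3 and 84.6% for REL.

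**Figure D4:**
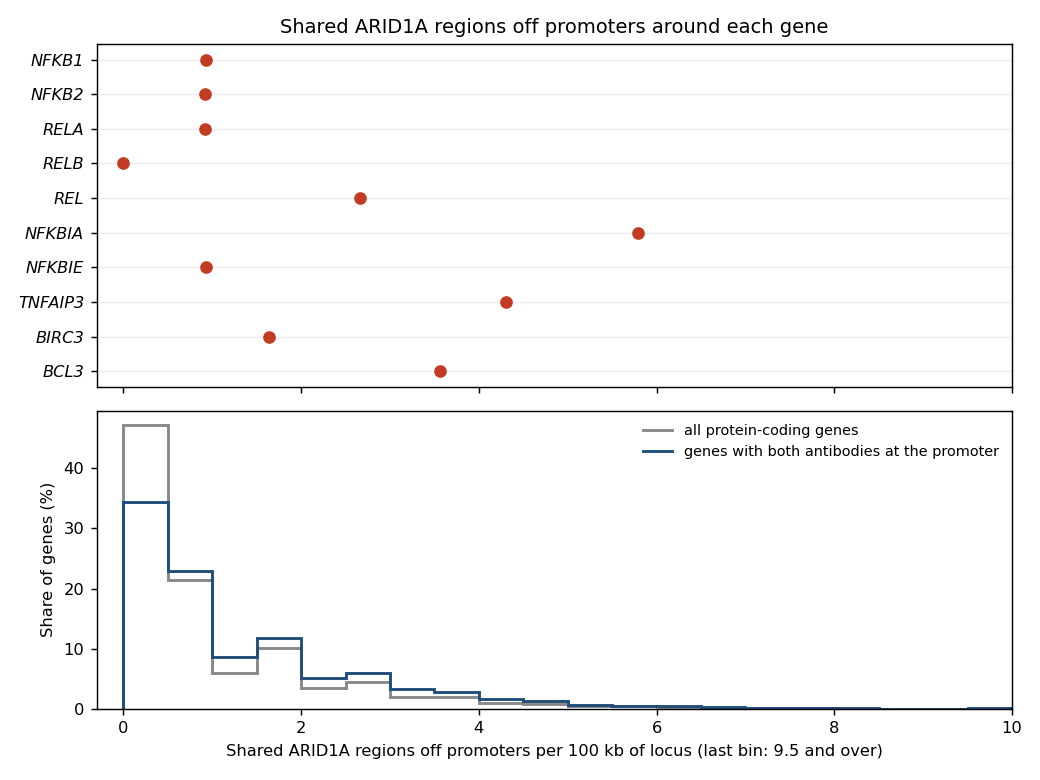
Shared ARID1A regions away from promoters per 100 kb of locus, for each of the 10 genes (points, above) and as the share of genes in % in bins of that density (lines, below) for all protein-coding genes and for those with both antibodies at the promoter. NFKBIA at 5.79, TNFAIP3 at 4.31 and BCL3 at 3.56 lie in the upper tail of both distributions and RELB lies at 0.

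All 6 shared regions off promoters around NFKBIA lay downstream, with Abcam midpoints 4.6, 13.8, 23.5, 30.3, 38.7 and 48.5 kb from the canonical TSS, and none lay in the 50 kb upstream. The nearest, chr14:35399147-35401200, reached the 3′ end of the gene. TNFAIP3 had a cluster of 3 shared regions 35.1 to 39.6 kb upstream (within chr6:137826906-137832778), a wider one of 3041 bp at 14.5 kb upstream (chr6:137851284-137854324) and 1 of 817 bp in an intron (chr6:137873218-137874034). The centres of those upstream lay in the body of the lncRNA gene WAKMAR2. BCL3 had 4 upstream, at 24.3, 13.6, 9.7 and 6.5 kb, the last being the widest at 2483 bp (chr19:44740928-44743410). Non-coding genes start within 1 kb of the one at 24.3 kb (CEACAM16-AS1 and a snoRNA gene) and the one at 9.7 kb (ENSG00000288773). Downstream of BCL3, the promoter of CBLC, a ubiquitin ligase gene, lay in an Abcam region of 5104 bp.

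REL had all 4 of its shared regions off promoters downstream, inside the body of PUS10, a pseudouridine synthase gene. The Abcam region at chr2:60957171-60962158 was 4988 bp wide, wider than 99.0% of the whole Abcam list, and 2 CST regions of 2648 and 3617 bp overlapped it. For that region, and for those at chr2:60962615-60964269 and chr2:60975725-60977982, the TSS of PUS10 was nearer than that of REL. BIRC3 had 2 shared regions upstream, 3241 bp wide at 48.7 kb (chr11:102267164-102270404) and 2515 bp wide at 11.1 kb (chr11:102305164-102307678). The promoter of BIRC3 thus lay between wide shared regions upstream and the H3K4me3-marked promoter of BIRC2 downstream.

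The remaining genes had few. RELA had 1, of 3230 bp (chr11:65650196-65653425), just past the 3′ end of the gene. Its Abcam midpoint lay 11.1 kb downstream of the canonical TSS. This region was the one that overlapped H3K4me3 (4044 bp), and the microRNA gene MIR4489 starts within 1 kb of that wider H3K4me3 region. NFKB1 had 1 of 1871 bp in an intron 10.8 kb from the canonical TSS (chr4:102511222-102513092) and 1 downstream at chr4:102627461-102628693. NFKB2 had 1 over an exon (chr10:102398294-102399844), and NFKBIE had 1 at chr6:44236841-44238663, nearer to HSP90AB1. Around RELB, Abcam alone was called at CLPTM1, CST alone at CLASRP and ZNF296, and neither at GEMIN7 with MARK4.

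The sequences under the regions were searched on both strands for 5 words, given as a description of the letters and not as binding. They were the 10-letter NF-kB consensus, TGANTCA (bound by AP-1), GGAATG (TEAD), GGGCGG (SP and KLF factors) and TGTTTAC (forkhead factors). In the central 300 bases, the NF-kB consensus was found in 7 of the 42 shared regions of the 10 loci (16.7%), against 4.56% of the 28609 shared regions of the genome. At promoters it was found in 3 of 16 (6.78% in the genome) and off promoters in 4 of 26 (3.82%). The 7 regions with the consensus belonged to 5 genes. They included the promoters of REL, TNFAIP3 and BIRC3 and the intronic region of TNFAIP3. The others were the region 13.8 kb downstream of the canonical TSS of NFKBIA, and those 24.3 and 9.7 kb upstream of BCL3.

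At REL the match, GGGAAATTCCC, is a stretch of 11 bases (chr2:60881527-60881537) that holds 2 overlapping matches. The other matches are given as read on the plus strand. TNFAIP3 has GGAAAGTCCC (chr6:137867192-137867201) and GGAAATCCCC (chr6:137867204-137867213) side by side just before the gene, and GGGGAATTCC in the intron (chr6:137873559-137873568). BIRC3 has GGAAATCCCC (chr11:102317285-102317294) and GGAGTTCCCC (chr11:102317349-102317358). The region 9.7 kb upstream of BCL3 held 3 matches in 300 bases, GGGGCTTCCC, GGGACTTCCC and GGGACTTTCC, more than any other of the 42. No match was found in any window of NFKB1, NFKB2, RELA, RELB or NFKBIE.

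Fixed promoter windows gave a fuller count. Of the 10 genes, 8 were matched in the RefSeq table of promoters (250 bases before to 50 after the start), and RELB and NFKBIE were not. The NF-kB consensus was present in 6 of the 8 and in 5.91% of all 35116 promoters. NFKB2 had GGGGCTTCCC from 176 bases and GGGACTTTCC from 21 bases before the start, NFKBIA had GGAAATTCCC from 81 bases before it on its own strand, and BCL3 had GGGAAGTCCC beginning 2 bases downstream of the first transcribed base. The matches of REL, TNFAIP3 and BIRC3 were those given above, and NFKB1 and RELA had none. Every match lay inside both the Abcam and the CST region, and inside H3K4me3 except at BIRC3. That was largely set in advance, since the Abcam region covered the canonical TSS in 10 genes and the CST region in 9. The set also holds genes chosen because NF-kB is known to induce them, so their matches are a description and not a finding about ARID1A.

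The other words followed the kind of region. GGGCGG was found in 11 of the 16 shared regions at promoters (56.3% in the genome) and in 1 of 26 off promoters (7.39%), and in 7 of 8 RefSeq promoters, with BIRC3 the exception (45.0% of all). TGANTCA was found in none of the 16 at promoters (9.60% in the genome) and in 9 of 26 off promoters (37.2%). GGAATG was found in 5 of the 26 (22.2%) and TGTTTAC in 3 (7.78%). Off promoters, the members' shares were thus 34.6%, 19.2% and 11.5% for the AP-1, TEAD and forkhead words, each near that of the genome.

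The rest of the pathway was less evenly covered than the 10 genes. Of 70 further pathway genes in 5 lists, 42 had an Abcam region at the promoter, 40 a CST region, 38 (54.3%) both, 46 H3K4me3 and 35 all 3. With H3K4me3, 35 of 46 (76.1%) had both antibodies, beside 63.8% of all genes with that mark. Without it, 3 of 24 (12.5%) had both, beside 9.40%, and these were IL1R1, the interleukin-1 receptor, IKBKB, a catalytic subunit of IkB kinase, and CXCL8, the neutrophil chemokine. They share with RELB and BIRC3 both antibodies and no H3K4me3.

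Inhibitors and ubiquitin enzymes other than the members came closest to them, with both antibodies at 12 of 14 (85.7%) and H3K4me3 at 14 of 14. The widest there, by the smaller of the ARID1A regions, were ITCH (2744 bp), NFKBIB (2439 bp), which encodes IkBbeta, OTULIN (2207 bp), which cleaves linear ubiquitin, and TAX1BP1 (2180 bp), an adaptor of A20. TNIP2 had no ARID1A region. Adaptors had both at 8 of 13 (61.5%), led by MALT1 (3176 bp) and BCL10 (2704 bp), partners in one signalling complex, then TRADD (2483 bp) and RIPK1 (1851 bp) of the TNF receptor complex, while IRAK1, TRAF3 and TRAF5 had neither. Kinases had both at 6 of 11 (54.5%), with IKBKG (3321 bp), the regulatory subunit of IkB kinase whose near-identical copy makes its unique reads uncertain, MAP3K8 (2789 bp), TBK1 (2009 bp) and MAP3K14 (1810 bp), the kinase of the non-canonical pathway. CHUK, the other catalytic subunit of IkB kinase, and TAB1 had no ARID1A region.

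Receptors and target genes lay near the background of 38.2%. Receptors had both antibodies at 5 of 12 (41.7%) and H3K4me3 at 5, with TNFRSF12A (4931 bp), the receptor for TWEAK, TLR4 (2100 bp), LTBR (1618 bp) and TNFRSF1A (1433 bp), and without either antibody at CD40, IL17RA, TLR2 and TLR3 among others. Target genes had both at 7 of 20 (35.0%) and H3K4me3 at 6. There PLAU (4262 bp), the urokinase gene, IER3 (3001 bp), CFLAR (2716 bp), an inhibitor of caspase-8, and SOD2 (1387 bp) were covered, and BCL2A1 and the chemokine genes CCL2, CCL20 and CCL5 were among those with no ARID1A region. The target genes were thus covered at about the share of any gene while the 10 factor and feedback genes were all covered. The groups also differed in H3K4me3, which was called at 6 of the 20 target genes and 8 of the 10. All 6 of those target genes and all 8 of those members had both antibodies, beside 63.8% of all genes with H3K4me3.

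**Figure D5:**
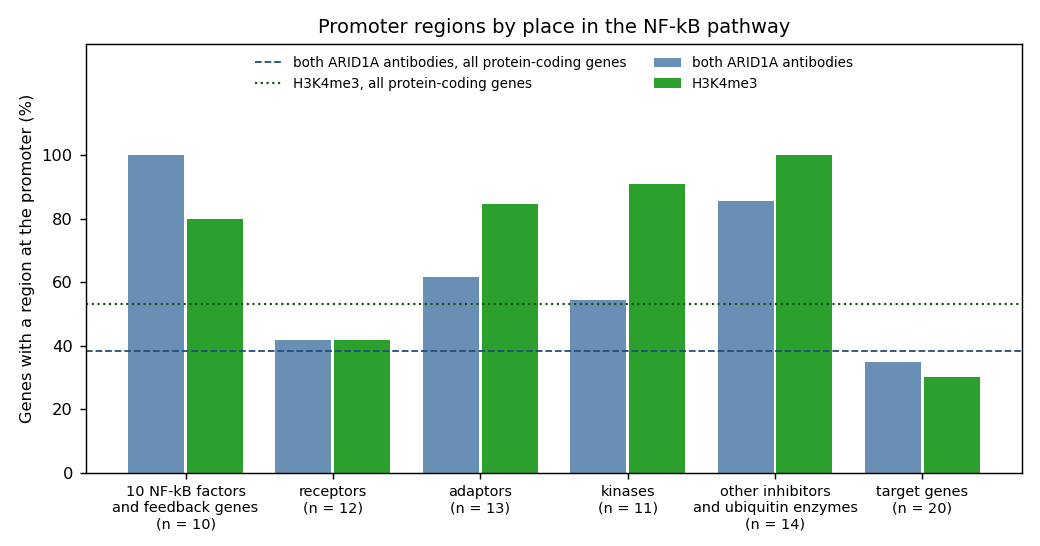
Share of genes in % with both ARID1A antibodies (blue) and with H3K4me3 (green) at the promoter, for the 10 genes and 5 lists of other NF-kB pathway genes, with the number of genes under each. The dashed and dotted lines are the shares over all protein-coding genes, 38.2% and 53.1%; inhibitors and ubiquitin enzymes at 85.7% lie well above the dashed line and target genes at 35.0% lie below it.

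The promoters matched the labelled epithelial line. Of 10 epithelial marker genes, 10 had both antibodies and H3K4me3, of 10 leukocyte markers 0 had H3K4me3 or both antibodies (Abcam alone at 2), and of 10 fibroblast and endothelial markers 1, LUM, had H3K4me3 and 0 had both antibodies. Over the genome the lists held 37501 Abcam, 32932 CST and 9765 H3K4me3 regions, with median widths of 1486, 1442 and 3046 bp, of which 24.1%, 24.4% and 93.8% lay at protein-coding promoters.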

How the data were processed

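CUT&RUN regions from RT112 cells were analysed for ARID1A (Abcam and CST antibodies) and H3K4me3. The authors deposited positions only (chromosome, start and end), 1 list per antibody, with no count, score or p-value. Per the labels and methods, reads were trimmed with cutadapt, aligned to GRCh38 and the E. coli spike-in genome with bwa-mem2, deduplicated with Picard, kept where unique, scaled by spike-in, called with SEACR and merged over 3 replicates with bedtools. Versions were not given in the sources used here. The methods state the relaxed SEACR setting with a small top fraction of peaks retained, while the lists are named stringent, so which mode made them is uncertain. The merging can widen regions and removes replicate spread, and dropping reads that are not unique can remove regions in repeats. Libraries were prepared in 2 batches whose members the labels do not give, and although the paper describes its results in general as resting on biologic replicates, whether these 3 were separate cultures is not stated.

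Regions on chromosomes 1 to 22 and X were joined to GENCODE 44 with Python 3.11.15 and pysam 0.24.0 (minimum overlap 1 bp). A shared region is an Abcam region that overlaps a CST region. The counting was tested on simulated regions with known answers. The 10 genes and all lists were chosen with earlier results of these data known. Named genes were all members and, in each pathway list, up to 4 with the widest regions and up to 4 without an ARID1A region in alphabetical order. The alternatives tried covered promoter size, TSS choice, overlap, region width, joining of nearby regions, flank size and sequence window.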

Additional observations from a re-analysis of the deposited data

How the results depend on the processing

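Both ARID1A antibodies stayed at 10 of 10 promoters with windows of 500 bp (37.1% of all genes) or 3 kb (41.6%), with canonical TSSs (35.0%), the most upstream TSS (33.9%) or TSSs of all transcripts (40.3%), with regions of at least 200 bp, and with regions under 500 bp apart joined. Keeping the wider part of each list, from its median up, left both antibodies at 5 of 10 (21.4% of all genes), CST at 6, all 3 lists at 4 and over 1 same TSS at 4, and left 22 shared regions, 14 off promoters, and 23 of the 70 pathway genes. NFKB1, RELA, NFKBIE, TNFAIP3 and BIRC3 were lost by that choice. Requiring the overlap to cover 50% of both regions gave 5 genes with the 3 lists over 1 TSS. With 10 kb flanks there were 20 shared regions, 9 off promoters and 13 H3K4me3 regions. With 100 kb flanks there were 71 shared regions and 47 off promoters. Within 50 kb, 9 H3K4me3 regions had a member's TSS as the nearest. The share with an NF-kB word was 28.6% in 500 bases (7.36% in the genome), 16.7% in 200 (3.03%) and 9.09% among wide regions (4.51%), and ranged from 9.09% to 30.0% over all choices. RELB and BIRC3 lacked H3K4me3 under all of the promoter choices, and TNFAIP3 did among the wider regions. No paired analysis was possible because the replicates of each antibody were merged into 1 list. Depth and the signal behind each call are not in the lists, so a missing region is not an absent mark.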
